A study of Mus musculus with 6 samples.

Results

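Astrocytes of the mouse lumbar spinal cord were followed in single-nucleus RNA sequencing (10x Chromium v2) of paralysed mice placed on a treadmill with or without TESS, targeted epidural electrical stimulation, a current applied over the cord. The astrocyte nuclei were those that the authors' deposited cell annotation calls Astrocyte at its broadest level, 1091 of 18514 nuclei. Of these, 420 came from 3 TESS samples and 671 from 3 control (CON) samples. All 6 samples came from wild-type C57BL/6 mice with a severe thoracic contusion that had left both hind legs paralysed, and all were taken after 30 min on a treadmill. The stimulation was combined with agonists of the 5-HT1a and D1 receptors, and the labels do not say whether CON mice also had the agonists. The labels give no age and do not say whether a sample is 1 mouse or a pool, so the p-values measure the spread between these samples, which may be partly technical. The extraction protocol names the thoracic injury site as the tissue taken, whereas the sample source is lumbar cord.

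Astrocytes take up glutamate, GABA and glycine released at synapses, buffer potassium, move water through aquaporin channels and are joined to each other by gap junctions. After injury they become reactive, a state marked by the intermediate filament protein GFAP. They carry the glucocorticoid receptor and a large metallothionein pool: metallothioneins are small cysteine-rich proteins that bind zinc and copper and are induced by metals and by glucocorticoids.

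The label was checked against its markers. Gene levels are given in CPM, a gene's UMIs scaled to the same UMI total in every class or sample (a UMI, or unique molecular identifier, stands for 1 captured RNA molecule). In the pooled astrocyte nuclei Slc1a2, the main glutamate transporter of astrocytes, stood at 3299, against 383 in oligodendrocyte precursors, the next highest class. Slc1a3, another glutamate transporter, stood at 430 in astrocytes and was 2.82 times its next highest class, microglia. Gfap was a weak separator, at 544 in astrocytes and 435 in endothelial nuclei. Among the 1821 genes with at least 100 CPM, those that set astrocytes most apart were Gm973 (74.3 times its level in the next class), Egfr, Bbox1, Gjb6 and Cml3. Slc4a4, a sodium bicarbonate cotransporter, was the most abundant of the 20 most selective genes, at 3408 and 43.5 times the next class. The angiotensinogen gene Agt, the neurotensin receptor gene Ntsr2, the GABA transporter gene Slc6a11 and the amino acid exchanger gene Slc7a10 were also among those 20. These ratios describe the authors' classes and were not tested, since the classes were built from the same genes.

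**Figure D1:**
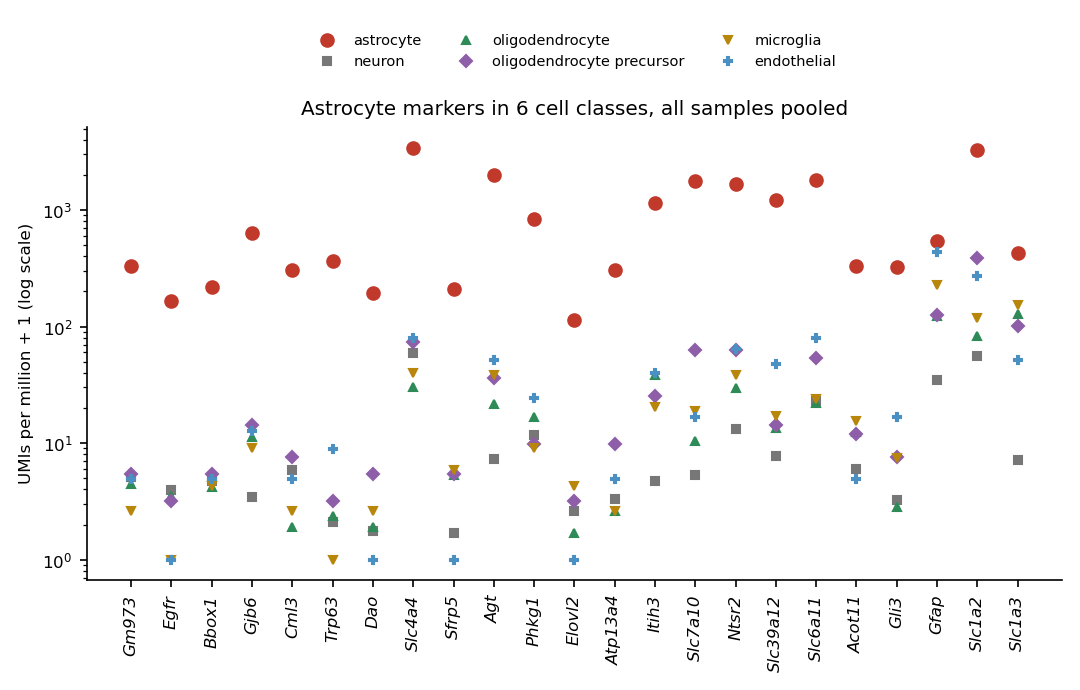
Pooled level of the 20 most astrocyte-selective genes and of Gfap, Slc1a2 and Slc1a3 in 6 cell classes, in CPM plus 1 on a log axis, 1 symbol per class. Red circles (astrocytes) lie far above every other class for the 20 selective genes, whereas for Gfap the endothelial value of 435 lies close to the astrocyte value of 544.

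Depth per nucleus and cells of other types differed between samples. The astrocyte UMIs of a sample ranged from 74151 to 91247 in TESS and from 120610 to 238697 in CON, and the median nucleus held 473 to 754 UMIs in TESS and 635.5 to 895.5 in CON. The batch numbers in the deposited annotation, whose meaning is not given, put TESS 1, CON 1 and CON 2 in 1 batch and each other sample in a batch of its own. Summed oligodendrocyte markers (14 genes) ranged from 2849 to 5165 CPM in TESS astrocytes and from 3262 to 3507 in CON astrocytes, against 36604 in oligodendrocytes themselves. The 8 of these markers with enough UMIs to test were all higher in TESS astrocytes, with a median log2 change of 0.26 and none called. Of all 2049 genes tested, 1025 were higher. Summed neuronal markers (15 genes) ranged from 1206 to 2169 in TESS and from 1260 to 1714 in CON, against 20213 in neurons. At 0 UMIs in the astrocyte nuclei were 2 of 12 precursor markers (Cspg4 and Neu4), 1 of 13 microglial (Itgam), 5 of 12 endothelial (Flt1 and Cdh5 among them) and 3 of 13 ependymal markers (Tmem212 among them). In pooled astrocytes the whole lists summed to 1014 CPM for precursors (782 to 963 in TESS, 985 to 1199 in CON), 360 for microglia (175 to 317 in TESS, 307 to 561 in CON), 309 for endothelium (230 to 366 in TESS, 293 to 337 in CON) and 83.8 for ependyma (43.8 to 108 in TESS, 24.9 to 126 in CON). Blood markers stood apart in TESS 2, at 1841 against 216 to 341 in the other TESS samples and 121 to 340 in CON, and 1 nucleus held 136 of the 157 haemoglobin UMIs of TESS 2. Of 18308 distinct barcodes 205 occurred in more than 1 library, and 1 of 1090 among astrocytes.

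The share of astrocytes did not separate the groups. Astrocytes made up 3.52%, 6.09% and 7.03% of nuclei in TESS samples 1, 2 and 3, against 8.04%, 3.81% and 6.56% in CON samples 1, 2 and 3. The lowest share was a TESS sample, the highest a CON sample, and the ranges overlapped. The mean was 5.55% ± 1.81 in TESS and 6.13% ± 2.15 in CON (SD, n = 3 each), a difference of -0.59 percentage points with p = 0.7 by a two-sided exact permutation test, which can reach no less than 0.1 with 3 samples against 3. Counting error alone gave 95% Wilson intervals reaching at most 1.15 points to a side.

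Of 2049 genes tested in astrocytes, 20 passed an adjusted p of 0.05 in edgeR's quasi-likelihood test on UMIs summed per sample, which is 0.976% of the genes. Of these, 16 were higher in TESS (0.781%) and 4 were lower (0.195%). The 3 TESS values lay entirely above or below the 3 CON values in 338 genes (16.5%), and in 17 of the 20 genes called. The median change of all genes tested was 0.00 on the log2 scale. Genes higher in TESS included the metallothionein genes Mt1 and Mt2, the glucocorticoid-inducible kinase gene Sgk1 and Gfap, and genes lower in TESS included the respiratory chain gene Ndufa4. Only Mt1 and Mt2 passed in every fit that left out 1 of the 6 samples.

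Mt2, which encodes metallothionein 2, had the smallest p. Its level was 2805, 2817 and 1986 CPM in TESS samples 1 to 3, against 1148, 929 and 1140 in CON samples 1 to 3. The lowest TESS sample was well above the highest CON sample. The log2 fold change was 1.21 ± 0.17 (SE; adjusted p = 9.6e-06), and it ranged from 1.11 to 1.36 as each sample was left out. Mt1, encoded next to it, stood at 3547, 4592 and 3241 in TESS, against 1768, 1592 and 2139 in CON. The groups again did not overlap, and the log2 fold change was 1.02 ± 0.16 (adjusted p = 0.0001). Mt3, the brain-type metallothionein, was at 809, 756 and 707 in TESS and at 641, 481 and 786 in CON, so its groups overlapped; its change was 0.21 ± 0.20 (adjusted p = 0.75). Of the 10 tested genes of a list on metallothioneins, metal transport and antioxidant defence, 2 rose (Mt1 and Mt2), none fell, and the median log2 change was 0.14. Fth1, the ferritin heavy chain gene of the same list, gave 0.11 ± 0.17 (adjusted p = 0.85).

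Because metallothionein promoters carry metal response elements, the promoter windows of both genes are shown with the elements' core in capitals (TGCACNC or TGCGCNC, read on both strands). For Mt1 the capitals also mark 1 glucocorticoid-receptor-type palindrome (GNACA and TGTNC with any 3 bases between them, both strands). Each window runs 250 bases before to 50 bases after the annotated start, 5′ to 3′ on the gene's strand, from RefSeq on GRCm38.p6. Mt1 is on the plus strand at chr8:94178839-94179138, and Mt2 on the plus strand at chr8:94172368-94172667.
Mt1: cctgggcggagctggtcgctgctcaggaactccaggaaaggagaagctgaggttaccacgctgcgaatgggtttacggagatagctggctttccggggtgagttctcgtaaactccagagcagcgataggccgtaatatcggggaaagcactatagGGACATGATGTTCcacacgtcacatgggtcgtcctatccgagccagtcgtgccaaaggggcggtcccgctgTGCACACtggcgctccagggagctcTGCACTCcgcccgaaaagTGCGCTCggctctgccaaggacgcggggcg
Mt2: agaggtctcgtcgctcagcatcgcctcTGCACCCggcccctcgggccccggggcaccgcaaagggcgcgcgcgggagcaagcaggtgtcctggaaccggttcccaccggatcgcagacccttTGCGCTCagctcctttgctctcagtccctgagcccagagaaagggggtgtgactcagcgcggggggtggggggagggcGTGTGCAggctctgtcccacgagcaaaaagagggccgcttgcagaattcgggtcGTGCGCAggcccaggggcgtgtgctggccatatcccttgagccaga
The Mt1 window held 3 metal-element cores and the palindrome GGACATGATGTTC at bases -94 to -82 from the start. The Mt2 window held 4 cores and no palindrome. Among 32851 mouse promoter windows of the same length, 25.7% held at least 1 core, 1.97% held 3 or more and 0.475% held the palindrome. A match of letters is a description and not a measured binding site.

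Sgk1, a kinase gene named for its induction by serum and glucocorticoids, had the largest log2 change of the genes called. It stood at 121, 132 and 171 CPM in TESS, against 25.1, 8.29 and 29.5 in CON, from 9, 12 and 14 UMIs in TESS and 6, 1 and 5 UMIs in CON. The TESS samples were all higher, on few molecules, and the log2 fold change was 2.57 ± 0.49 (adjusted p = 0.0013). Oligodendrocytes held far more of it, at 830, 803 and 669 in TESS and 289, 105 and 355 in CON, and it rose there too (log2 change 1.60 ± 0.25, adjusted p = 0.0011). Of all genes tested in oligodendrocytes 1.07% rose. In the 698 astrocyte nuclei with fewer than 3 UMIs of any other type's markers, the level was 0, 59.9 and 94.4 in TESS and 15.8, 0 and 0 in CON, so the groups overlapped. These values rest on 9 UMIs in TESS and 2 in CON, and a count of 0 allowed up to 82.8 CPM in TESS 1. Summed oligodendrocyte markers were at 5165, 2849 and 4496 in TESS astrocytes, and their part in the Sgk1 change was not tested. One of the 6 annotated Sgk1 starts, at chr10:21993640-21993939 on the plus strand (RefSeq, GRCm38.p6), holds a palindrome of the type searched in Mt1, GAACAGAATGTTC, in capitals at bases -188 to -176; the other 5 Sgk1 windows held none, and the share given above is per window, not per gene with 6 windows. None of the windows of Fkbp5, Nfkbia, Per1, Tsc22d3 and Mt2 held it.
Sgk1: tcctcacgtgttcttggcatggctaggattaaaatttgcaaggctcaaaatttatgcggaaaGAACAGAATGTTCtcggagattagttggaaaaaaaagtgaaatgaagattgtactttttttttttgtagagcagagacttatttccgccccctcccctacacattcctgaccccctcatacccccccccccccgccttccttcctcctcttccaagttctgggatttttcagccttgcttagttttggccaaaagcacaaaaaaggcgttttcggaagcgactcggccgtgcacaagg

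A list of glucocorticoid response genes was read beside these. Of 14 members tested, 3 rose (Mt2, Mt1 and Sgk1), none fell, 10 were higher and 4 lower, and the median log2 change was 0.42, against 0.00 for all genes. In 7 of the 14 every TESS value lay above every CON value, which held for 8.2% of all genes. Like the other gene lists here, the glucocorticoid list was chosen with earlier results of these data known. Its comparison with all genes is a description and not a test. Mt1 and Mt2 also stand on the metallothionein list. Nfkbia, the inhibitor of NF-kB, stood at 175, 121 and 134 in TESS and 54.5, 49.7 and 59.1 in CON. Those groups did not overlap, yet its change of 1.33 ± 0.39 missed the threshold (adjusted p = 0.093). In oligodendrocytes Nfkbia rose by 2.62 ± 0.30 (adjusted p = 5.5e-05), and the difference between the classes did not pass (adjusted p = 0.50). Sgk1 and Nfkbia passed the count filter only through their TESS samples. Being tested therefore already favoured a rise for these 2 genes. Tsc22d3 (GILZ, a glucocorticoid-induced leucine zipper gene) gave 0.52 ± 0.24 (adjusted p = 0.36). Glul, which encodes glutamine synthetase and also stands on this list, gave 0.26 ± 0.21 (adjusted p = 0.71).

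Fkbp5, a co-chaperone gene that restrains the glucocorticoid receptor, and the clock gene Per1 fell under the count filter of that test. With the minimum count lowered from 10 to 3, a setting chosen after seeing the data, 6271 genes were tested and 24 called (0.383%): 18 rose (0.287%) and 6 fell (0.0957%). Fkbp5 then gave a log2 change of 3.23 ± 0.54 (adjusted p = 1.7e-05), from 6, 23 and 5 UMIs in TESS and 3, 3 and 1 in CON. Its level was 80.9, 252 and 60.9 CPM in TESS, against 12.6, 24.9 and 5.91 in CON: every TESS sample was higher and TESS 2 stood far above the rest. In the nuclei with few markers of other types it had 19 UMIs in TESS, 16 of them in TESS 2, and 1 UMI in CON. Per1 gave 2.07 ± 0.50 (adjusted p = 0.018), at 80.9, 121 and 122 in TESS and 33.5, 24.9 and 11.8 in CON, with no overlap. Per1 also rose in neurons, by 1.67 ± 0.25 (adjusted p = 0.0026), and the difference from neurons did not pass (0.25 ± 0.58, adjusted p = 0.98). With the minimum count of 3, 5 of 24 glucocorticoid-list genes rose and none fell, and the list median was 0.47, against -0.02 for all genes. Fkbp5 passed that lower filter only through its TESS samples.

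**Figure D2:**
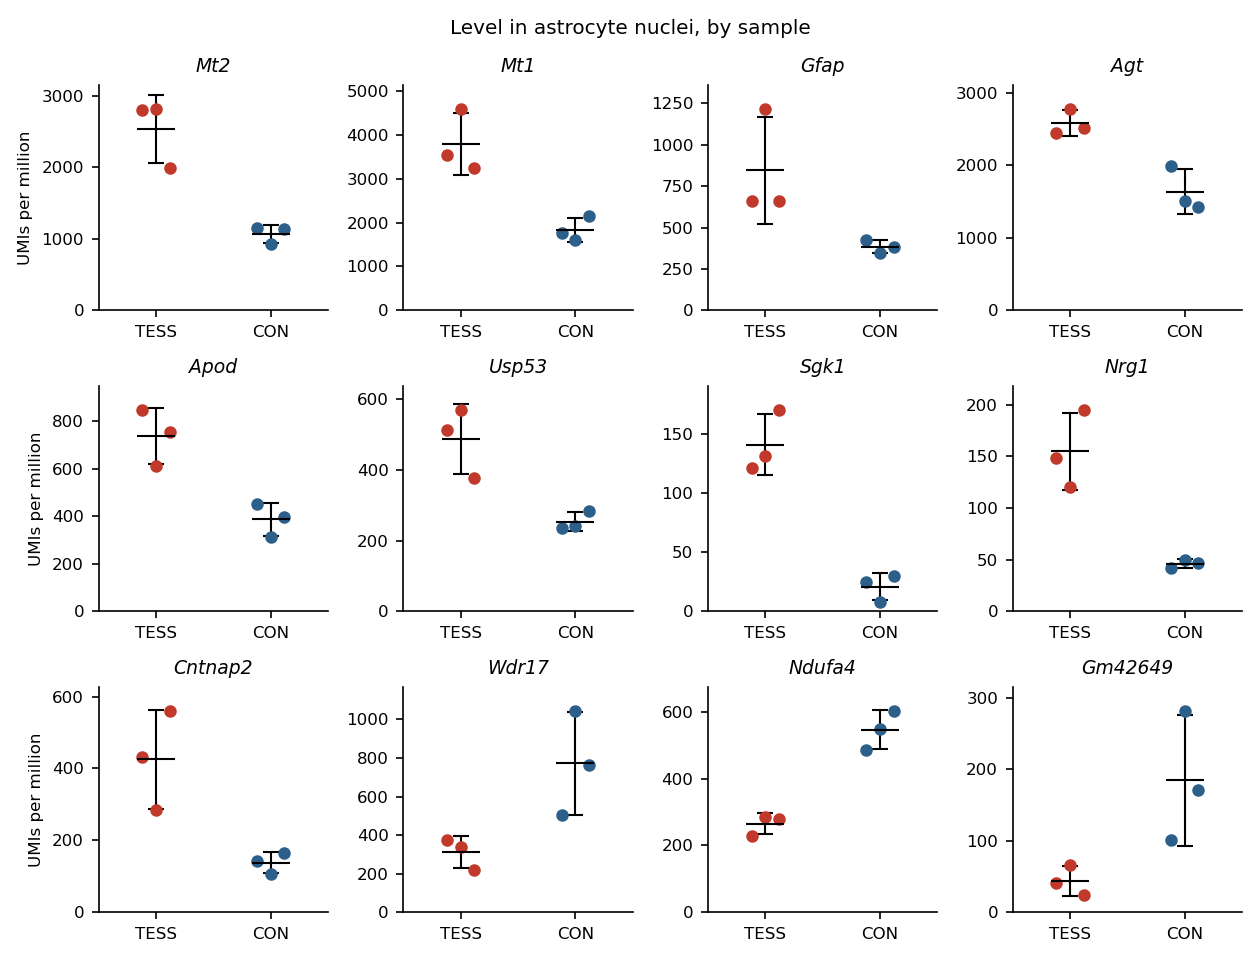
Level of 12 genes in astrocyte nuclei in CPM, 1 point per sample; the bar and whiskers give the mean and SD of 3 samples. For all 12 genes the TESS points lie wholly above the CON points, or wholly below them in the cases of Wdr17, Ndufa4 and Gm42649.

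Gfap, the intermediate filament gene of reactive and fibrous astrocytes, rose in TESS. Its level was 661, 1216 and 658 CPM in TESS, against 423, 348 and 384 in CON. TESS 2 stood far above the others, and the other TESS samples were still above every CON sample. The log2 fold change was 1.11 ± 0.22 (adjusted p = 0.0018). Without TESS 2 it was 0.73 and no longer passed, and inside the batch of TESS 1, CON 1 and CON 2 it was also 0.73. Gfap overlaps the gene Gm26668 on the opposite strand, and the sources used here do not say whether the counting used strand. Its promoter window on the minus strand (chr11:102897151-102897450, RefSeq, GRCm38.p6) held 1 STAT-type palindrome (TTCNNNGAA, both strands), shown in capitals because STAT3 is a known regulator of Gfap; 8.30% of all windows held one.
Gfap: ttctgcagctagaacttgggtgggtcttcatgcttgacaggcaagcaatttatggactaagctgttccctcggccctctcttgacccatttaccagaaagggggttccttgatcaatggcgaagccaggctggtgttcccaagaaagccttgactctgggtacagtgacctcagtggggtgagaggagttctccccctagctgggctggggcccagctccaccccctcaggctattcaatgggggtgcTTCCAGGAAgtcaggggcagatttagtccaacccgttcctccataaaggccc

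Other reactive genes were mostly too low to test. Of 13 pan-reactive genes only Gfap passed the count filter. Lcn2, an iron-binding secreted protein gene of reactive astrocytes, had 0, 4 and 0 UMIs in TESS and 0, 0 and 1 in CON. Vim, the vimentin gene, had 4, 4 and 1 UMIs in TESS and 2, 5 and 4 in CON. A difference in either was not detectable at this depth. Of 3 tested inflammatory reactive genes none was called; C4b, a complement gene, stood at 148, 405 and 183 in TESS and 117, 108 and 142 in CON, with a change of 1.00 ± 0.32 (adjusted p = 0.12). In oligodendrocytes C4b rose by 0.86 ± 0.15 (adjusted p = 0.0026), and the difference from them did not pass (0.07 ± 0.30, adjusted p = 0.99). C4b has the close paralog C4a, whose reads may be split with it. The 4 tested genes of IL6, STAT3 and NF-kB signalling were all higher with none called, their median log2 change was 0.65, and Stat3 itself gave 0.94 ± 0.34 (adjusted p = 0.21).

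Several genes outside these groups rose as well. Agt, from which angiotensin peptides are cut, was at 2454, 2784 and 2522 in TESS, against 1990, 1509 and 1424 in CON, a log2 change of 0.62 ± 0.16 (adjusted p = 0.041). Apod, a lipid-binding lipocalin gene, was at 850, 614 and 756 in TESS and 452, 315 and 396 in CON (0.87 ± 0.21, adjusted p = 0.022). In both genes every TESS sample was above every CON sample. Apod was far higher in oligodendrocytes, at 8118, 11146 and 9342 in TESS and 7548, 6177 and 5527 in CON. In the nuclei with few other-type markers astrocytic Apod was lower in both groups, at 331, 284 and 245 in TESS and 118, 116 and 161 in CON, still without overlap. Usp53, of the ubiquitin-specific protease family, gave 0.92 ± 0.24 (adjusted p = 0.036). Rhou gave 1.39 ± 0.34 (adjusted p = 0.024), and Slc24a4, a potassium-dependent sodium-calcium exchanger gene, gave 1.40 ± 0.36 (adjusted p = 0.035). A2m, which encodes the protease inhibitor alpha-2-macroglobulin, rose by 1.33 ± 0.33 (adjusted p = 0.028) with overlapping groups, at 121, 449 and 232 in TESS and 83.8, 124 and 124 in CON; without TESS 2 it was 0.70 and not called. A2m and Tenm2 were chosen after their values were seen.

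The haemoglobin gene Hbb-bs was called at 2.54 ± 0.47 (adjusted p = 0.00081), and it rested on TESS 2. Its level was 121, 1008 and 134 in TESS, against 25.1, 166 and 65.0 in CON, and the groups overlapped. Without TESS 2 the log2 change was 0.78 and not called, and most haemoglobin UMIs of TESS 2 lay in 1 nucleus. Hbb-bs is nearly identical to Hbb-bt, so reads may be divided between them.

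A further 5 genes that rose are abundant in neurons: Nrg1, Cntnap2, Lrrtm4, Ccser1 and Tenm2. Nrg1 encodes neuregulin, a ligand of ErbB receptors, and stood at 148, 121 and 195 in TESS astrocytes, against 41.9, 49.7 and 47.3 in CON astrocytes (log2 change 1.71 ± 0.40, adjusted p = 0.019). Cntnap2, a cell adhesion gene, stood at 432, 285 and 561 in TESS, against 142, 108 and 165 in CON (1.55 ± 0.27, adjusted p = 0.00053). Groups did not overlap for either gene. Lrrtm4, a synaptic leucine-rich repeat protein gene, gave 1.24 ± 0.32 (adjusted p = 0.035). Ccser1 gave 1.23 ± 0.32 (adjusted p = 0.041), and the teneurin gene Tenm2 gave 1.5 ± 0.34 (adjusted p = 0.010) with overlapping groups. Of the 6 fits that left out 1 sample, Cntnap2 passed in 5, Tenm2 in 4, Nrg1 and Lrrtm4 in 3 and Ccser1 in 1. In neurons Cntnap2 stood at 5464, 5931 and 5103 in TESS and 4918, 4850 and 5561 in CON, and Nrg1 at 2104, 2085 and 1932 in TESS and 1780, 1704 and 1916 in CON. Summed neuronal markers were at 1713, 1206 and 2169 in TESS astrocytes, highest in TESS 3 as Cntnap2 and Nrg1 were, and their part in these changes was not tested. In the 698 nuclei with few markers of other types Cntnap2 was at 359, 269 and 604 in TESS and 158, 82.7 and 183 in CON, and Nrg1 was at 110, 150 and 170 in TESS and 47.4, 82.7 and 32.2 in CON, both without overlap. Nrg3, another neuregulin, gave 1.03 ± 0.29 in astrocytes and did not pass (adjusted p = 0.061).

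Of the genes lower in TESS, 4 passed the test. Wdr17, of the WD-repeat family, was at 378, 340 and 219 in TESS, against 507, 1045 and 762 in CON, with a log2 change of -1.31 ± 0.25 (adjusted p = 0.0012). The highest TESS sample lay below the lowest CON sample. Ndufa4, which encodes a subunit of cytochrome c oxidase, was at 229, 285 and 280 in TESS, against 486, 547 and 603 in CON (-1.05 ± 0.24, adjusted p = 0.010), with no overlap. Ndufa4 also fell in oligodendrocytes (-0.84 ± 0.17, adjusted p = 0.013), where 51 of 8796 genes tested fell. In neurons and in oligodendrocyte precursors it gave -0.52, not called in either. The astrocyte change of Ndufa4 did not differ from that of any of these classes in the interaction test at adjusted p below 0.05. Gm42649, whose symbol had no match in the annotation used here for gene positions, gave -1.95 ± 0.46 (adjusted p = 0.017). It had 3, 6 and 2 UMIs in TESS and 24, 34 and 29 in CON. The long noncoding gene 9630028H03Rik, antisense to the phospholipase C gene Plcb1, gave -1.45 ± 0.37 (adjusted p = 0.035). Without strand information its reads cannot be told from those of Plcb1. It also fell in neurons (-0.93 ± 0.20, adjusted p = 0.024), where 90 of 11686 genes tested fell. Its difference from neurons did not pass (-0.60 ± 0.46, adjusted p = 0.90). With 1 sample left out, Wdr17 passed in 5 of 6 fits, Ndufa4 in 3, and Gm42649 and 9630028H03Rik in 2 each. Gm26704, a noncoding gene at the promoter of Fzd6, gave -1.63 ± 0.44 and did not pass (adjusted p = 0.055).

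Genes of oxidative phosphorylation were mostly lower. Of 41 tested, 1 fell (Ndufa4), none rose, 31 were lower and 10 higher, and the median log2 change was -0.28, against 0.00 for all genes. The cytochrome c oxidase subunit gene Cox8a, at 283, 186 and 219 in TESS and 344, 332 and 502 in CON, gave -0.82 ± 0.26 (adjusted p = 0.13). The list median was between -0.36 and -0.21 as samples were left out, and -0.08 inside the batch that held both groups. Ribosomal protein genes had a median of -0.08 with 16 tested and none called, and 0.47 inside that batch.

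Lists of astrocyte uptake and ion handling genes held no gene that was called. Of 7 tested genes of glutamate uptake and metabolism none passed: Slc1a2 was at 4491, 3529 and 4204 in TESS, against 3109, 2579 and 2996 in CON, and gave 0.46 ± 0.15 (adjusted p = 0.16) although its groups did not overlap. Slc1a3 gave 0.00 ± 0.24. Of 4 genes of GABA and glycine uptake none passed, and the glycine transporter gene Slc6a9 was the highest at 0.77 ± 0.37 (adjusted p = 0.39). Of 12 genes of potassium, water and gap junction handling none passed. In that list the water channel gene Aqp4 gave 0.53 ± 0.17 (adjusted p = 0.15), the potassium channel gene Kcnj10 gave 0.04 ± 0.21, and the connexin 43 gene Gja1 gave -0.01 ± 0.16. The list medians were 0.08 (-0.074 inside the batch that held both groups), 0.23 and 0.06. Among 13 genes of protoplasmic (grey matter) astrocytes only Agt rose, with a median of 0.06, and among 5 of fibrous (white matter) astrocytes only Gfap rose, with a median of 0.32 (-0.23 inside that batch). Neurotransmitter receptor and calcium genes (14 tested, median 0.06, but -0.11 inside that batch), synapse and matrix genes (18, median 0.13), cholesterol and lipid genes (14, median 0.04, but -0.27 inside that batch and -0.21 at a minimum count of 3), glycolysis and glycogen genes (12, median 0.06) and heat shock genes (11, median 0.22, but -0.013 without TESS 3) had none called. Of 8 growth factor and cytokine genes Nrg1 alone rose, with a median of 0.30, which was 0.085 without TESS 2 and 0.034 at a minimum count of 3.

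Immediate early genes, the fast transcriptional response to activity, had few UMIs. Fos had 0, 5 and 1 UMIs in TESS astrocytes and 3, 0 and 2 in CON, Junb had 1, 2 and 1 in TESS and 1, 1 and 1 in CON, and Egr1 had 1, 1 and 0 in TESS and 1, 0 and 0 in CON. A difference in these genes was not detectable at this depth. The 1 tested member, Gadd45g, gave 0.82 ± 0.30 (adjusted p = 0.20). At a minimum count of 3, 5 members were tested, of which 1 rose (Per1), none fell, 4 were higher and 1 lower, with a median of 0.80.

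**Figure D3:**
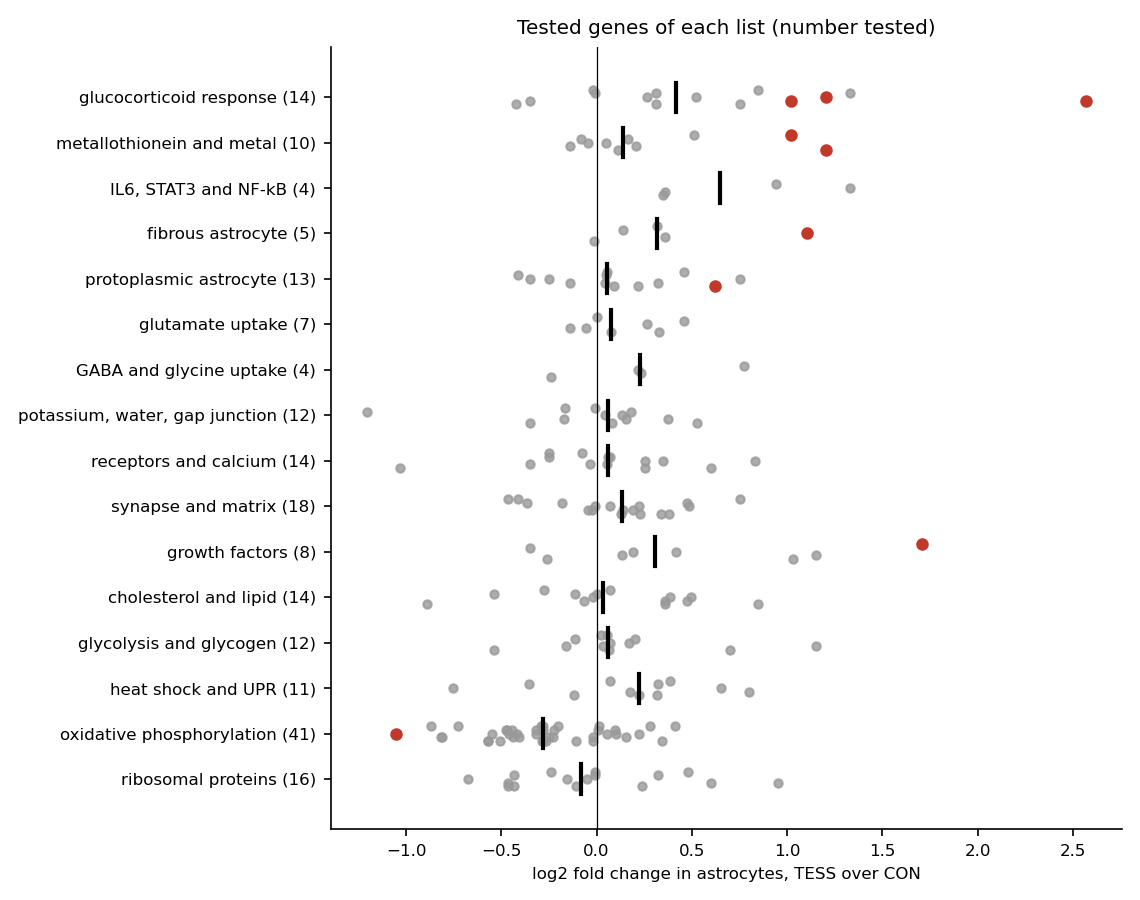
Log2 fold change (TESS over CON) of every tested astrocyte gene of 16 lists, 1 point per gene; red points passed an adjusted p of 0.05, grey points did not, and black bars are list medians. The glucocorticoid list has 3 red points and a median of 0.42, and the oxidative phosphorylation list lies mostly left of 0, with a median of -0.28.

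Where the astrocyte change differed from that of another class was tested as an interaction. Against neurons, 7 of 10123 genes differed (0.0691%): the TESS change was more positive in astrocytes for Sgk1 by 2.29 ± 0.48 (adjusted p = 0.0054), Mt2 by 0.96 ± 0.20 (0.0054), Cntnap2 by 1.37 ± 0.29 (0.0054), Fkbp5 by 2.68 ± 0.59 (0.0093) and Hbb-bs by 1.65 ± 0.37 (0.0093). Fkbp5 also rose in oligodendrocytes, by 2.05 ± 0.38 (adjusted p = 0.0042), and its difference from them of 1.29 ± 0.61 did not pass (adjusted p = 0.65). For Wdr17 the astrocyte change was more negative by 1.16 on the log2 scale (difference -1.16 ± 0.25), and for Lrrtm3, a relative of Lrrtm4, the difference was -0.82 ± 0.18. Nrg1 and Lrrtm4 gave differences of 1.47 ± 0.42 and 0.99 ± 0.33 from neurons that did not pass (adjusted p = 0.23 and 0.46). Mt2 in neurons stood at 47.1, 105 and 55.9 in TESS and 41.7, 56.1 and 87.4 in CON. Against oligodendrocyte precursors, 2 of 2592 genes differed (0.0772%), Sgk1 by 2.44 ± 0.57 and Slc4a4 by -2.31 ± 0.53 (adjusted p = 0.043 each). In astrocytes Slc4a4 stood at 4167, 2893 and 3729 in TESS and 3414, 3242 and 3309 in CON, with overlapping groups. Its pooled level in precursors was 72.7 CPM, with a UMI in 3.56% of precursor nuclei. The Slc4a4 difference therefore rests on few precursor molecules.

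Against oligodendrocytes, 36 of 7077 genes differed (0.509%), and in 31 of them the astrocyte change was the lower one. Gpc5, a glypican gene that astrocytes express highly, stood at 5893, 5206 and 5435 in TESS astrocytes and 7005, 6790 and 7723 in CON astrocytes. Every TESS sample was lower, but the change of -0.41 ± 0.15 did not pass in astrocytes (adjusted p = 0.21), nor did that of 0.72 ± 0.23 in oligodendrocytes (adjusted p = 0.11); the difference between them did, at -1.17 ± 0.24 (adjusted p = 0.00066). For the channel gene Trpm3 the difference was -1.28 ± 0.24. Tenm2 differed in the other direction, by 1.33 ± 0.33 (adjusted p = 0.012). For Sgk1, Nrg1, Cntnap2 and Lrrtm4 the differences from oligodendrocytes were 1.08 ± 0.49, 0.01 ± 0.34, 0.18 ± 0.28 and -0.22 ± 0.33. None of the 4 passed, and all 4 genes also rose in TESS oligodendrocytes. Cntnap2 rose in TESS oligodendrocyte precursors as well, by 1.98 ± 0.29 (adjusted p = 0.00027), where 2 of 1289 genes tested rose. Its difference from precursors, -0.41 ± 0.38, did not pass (adjusted p = 0.95). For Mt2 the difference from oligodendrocytes was 0.74 ± 0.21 (adjusted p = 0.064), and from precursors it was 0.48 ± 0.38 (adjusted p = 0.94). In precursors Mt2 itself gave 0.71 ± 0.36 (adjusted p = 0.56). For Mt1 no difference passed, at 0.58 ± 0.18 from neurons, 0.58 ± 0.19 from oligodendrocytes and 0.25 ± 0.27 from precursors. Their adjusted p were 0.30, 0.22 and 0.97. Gfap gave differences of 0.30 ± 0.25 from neurons and 0.34 ± 0.24 from oligodendrocytes (adjusted p = 0.91 and 0.85). Its own log2 change was 0.69 ± 0.20 in neurons and 0.66 ± 0.20 in oligodendrocytes (adjusted p = 0.11 and 0.099), where its level was 51.7 or less in neurons and 182 or less in oligodendrocytes.

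**Figure D4:**
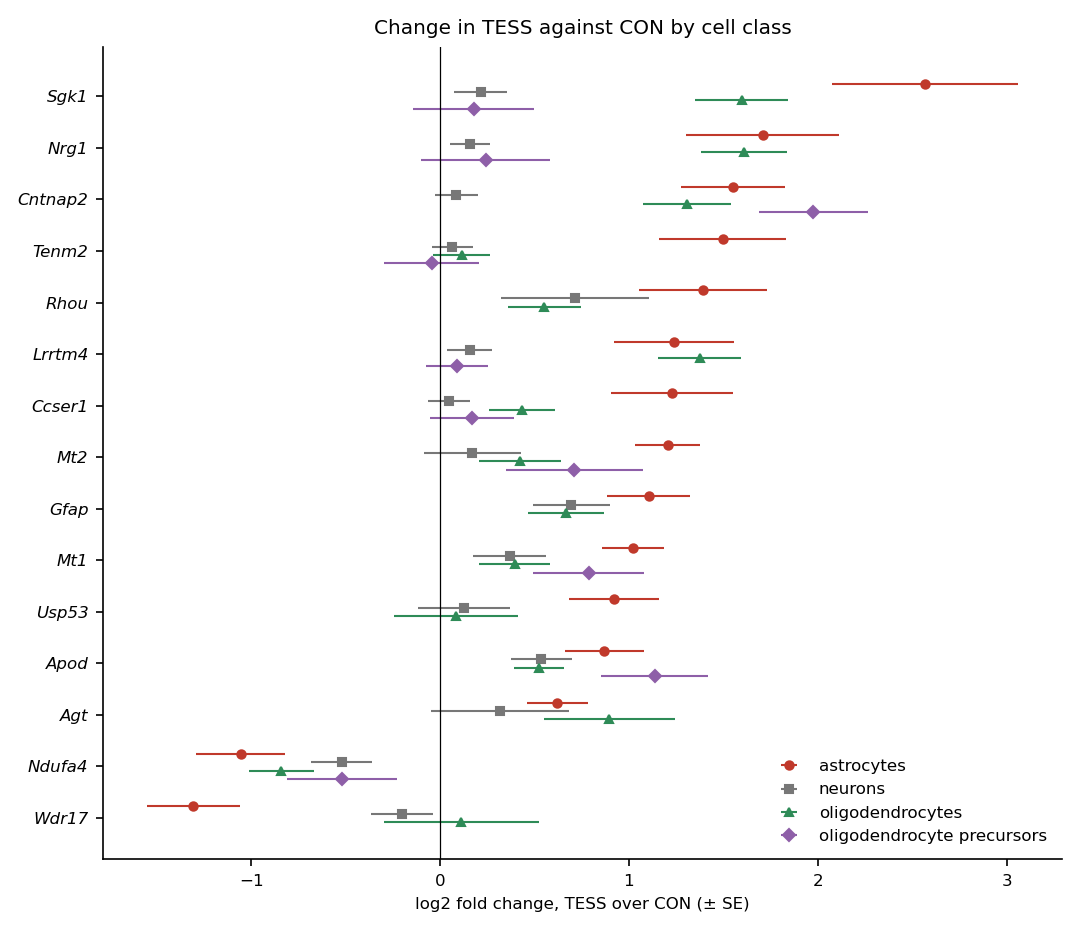
Log2 fold change (TESS over CON, with SE) of 15 called astrocyte genes in astrocytes, neurons, oligodendrocytes and oligodendrocyte precursors; a class without a point had too few UMIs to test the gene. Mt2 and Sgk1 lie at 1.21 and 2.57 in astrocytes and near 0 in neurons (0.17 and 0.22), and Nrg1 is at 1.71 in astrocytes and 0.16 in neurons. In oligodendrocytes Sgk1 is at 1.60, Nrg1 at 1.61 and Mt2 at 0.42.

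The same genes were read nucleus by nucleus. Each of the 931 nuclei with at least 400 UMIs was thinned to 400 at random, and 160 shallower nuclei (10, 54 and 44 in TESS and 23, 4 and 25 in CON) were left out. An Mt2 UMI was then found in 68.7%, 60.5% and 48.2% of TESS nuclei, against 30.7%, 28.6% and 30.0% of CON nuclei. Without thinning the shares were 83.9%, 65.9% and 55.8% in TESS and 48.5%, 46.9% and 43.1% in CON. Neurons, thinned in the same way, had Mt2 shares of 0.546% to 4.15% in TESS and 1.77% to 4.89% in CON. Oligodendrocytes had 5.60% to 9.34% in TESS and 5.56% to 6.76% in CON. Every astrocyte share was higher than these. Whether RNA from outside the nucleus contributed to any of these shares was not tested. Mt1 was found in 61.4%, 70.6% and 70.0% of TESS and 47.4%, 46.8% and 55.2% of CON nuclei. Among nuclei with an Mt2 UMI the mean number was 1.60, 1.86 and 1.58 in TESS and 1.33, 1.28 and 1.52 in CON, so both the share of nuclei and the count within them were higher in each TESS sample.

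Gfap UMIs occurred in 19.3%, 32.8% and 18.2% of thinned TESS nuclei, against 11.5%, 7.14% and 9.87% of CON nuclei; unthinned, the shares were 28.0%, 40.5% and 22.1% in TESS and 22.9%, 17.7% and 18.1% in CON. The thinned groups did not overlap, while CON 1 exceeded TESS 3 without thinning. Oligodendrocytes had thinned Gfap shares of 5.22% to 6.34% in TESS and 2.59% to 4.69% in CON, and neurons 1.60% to 2.93% in TESS and 1.19% to 1.96% in CON. Sgk1 was found in 4.82%, 4.20% and 7.27% of TESS nuclei and 1.11%, 0% and 0.448% of CON nuclei; 0 of 126 nuclei allows up to 2.38%. Oligodendrocytes had Sgk1 shares of at least 18.3% in TESS and at least 3.64% in CON, and neurons 4.23% to 8.45% in TESS and 3.43% to 5.47% in CON. Sample by sample, the astrocyte share was above the neuronal share in TESS 1 and below it in TESS 2 and TESS 3, and the CON astrocyte shares lay below the neuronal CON range. Whether these UMIs came from the astrocytes themselves was not tested.

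**Figure D5:**
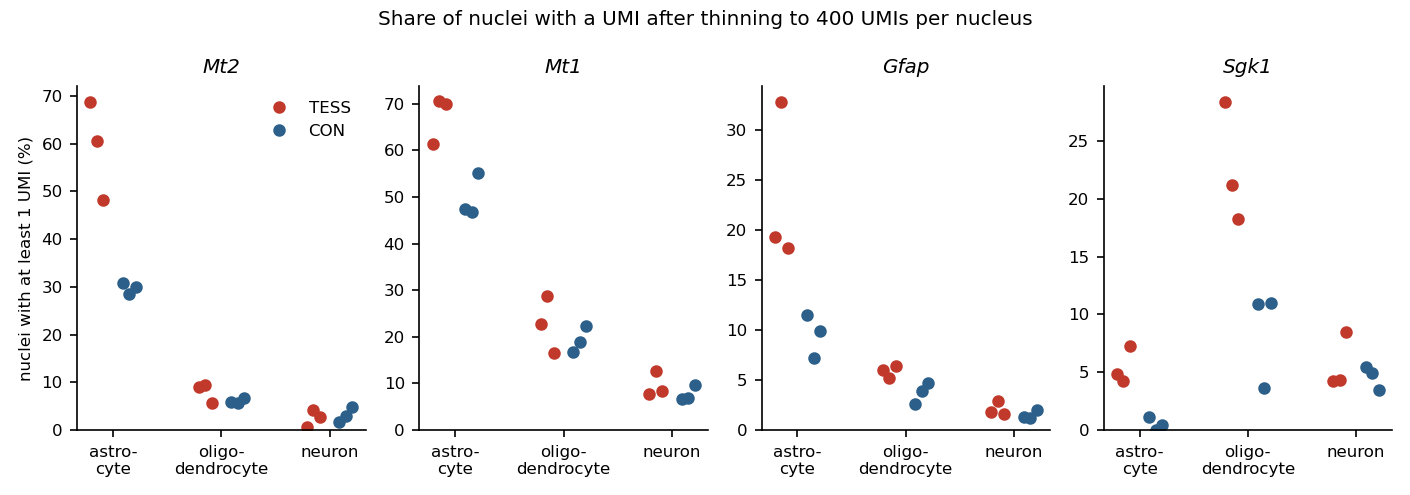
Share of nuclei with at least 1 UMI of Mt2, Mt1, Gfap and Sgk1 in astrocytes, oligodendrocytes and neurons, each nucleus thinned to 400 UMIs; 1 point per sample, TESS left of CON. For Mt2 the astrocyte points lie between 48.2% and 68.7% in TESS and at 30.7% or less in CON, and Sgk1 is higher in oligodendrocytes than in astrocytes in every sample.

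Astrocytes vary among themselves, as the nuclei with and without Gfap show. At equal depth 137 of 931 nuclei held a Gfap UMI. Mt2 was found in 56.9% of nuclei with Gfap and 36.5% of those without, a direction shared by 6 of 6 samples. Aqp4 was found in 45.3% and 31.2% and Agt in 60.6% and 46.5%, each in the same direction in 5 of 6 samples. In the other direction Gpc5 was found in 75.2% of nuclei with Gfap and 87.3% of those without, and the connexin 30 gene Gjb6 in 12.4% and 24.4%; each was higher in nuclei with Gfap in 1 of 6 samples. For Mt1 the shares were 63.5% and 54.8%, higher with Gfap in 3 of 6 samples. These are descriptions, with no test, over nuclei pooled from samples that differ in Gfap. The genes given come from a larger set compared in the same way, in which only Mt2 reached 6 of 6 samples.

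Slc7a10, a transporter gene of protoplasmic astrocytes, had a UMI in 705 nuclei and none in 386. Mt2 stood at 2893, 3192 and 2094 in TESS and 1219, 981 and 1144 in CON in nuclei with Slc7a10, and at 2520, 2557 and 1804 in TESS and 940, 641 and 1134 in CON in nuclei without. Gfap stood at 617, 1127 and 601 in TESS and 416, 393 and 264 in CON in nuclei with it, and at 802, 1279 and 754 in TESS and 445, 107 and 630 in CON in nuclei without. In both sets of nuclei every TESS sample was above every CON sample for both genes. Whether a nucleus shows an Slc7a10 UMI depends on its depth, so the sets are not compared with each other.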

How the data were processed

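Nuclei of lumbar cord from 3 TESS and 3 CON samples were sequenced with the 10x v2 chemistry. Per the submitters' processing notes, Cell Ranger 2.2.0, Seurat 3, mm10 and GRCm38 were used. The authors deposited raw UMI counts per gene and nucleus and an annotation of each nucleus with its library, batch number and cell type; their filters, doublet handling and counting strand are not stated. The annotation's mitochondrial fraction, inferred as such from the column name in the deposited table, was not used in any test. The design text states 20484 nuclei and the table holds 18514; no filter was added and no doublet caller was run.

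Counts were summed per sample over the Astrocyte nuclei (74151 to 238697 UMIs). Genes were filtered with filterByExpr at a minimum count of 10 and tested with edgeR 4.0.16 (R 4.3.3; TMM, quasi-likelihood F test, Benjamini-Hochberg adjustment over all genes tested, threshold 0.05). Other classes were fitted separately in the same way, and differences from them were tested as the interaction of class and group with the sample as a block; the fit with a minimum count of 3 is named where used. Every adjusted p comes from one of these edgeR fits, and the ± beside a log2 change is the standard error of that fit. DESeq2 1.42.0, other scalings, filters, batch and left-out samples were alternatives. Levels (CPM) are UMIs relative to all astrocyte UMIs of a sample, and intervals and limits for counts of 0 (3 counts) cover counting error only. The fitting scripts were tested on simulated data. Python 3.11.15, numpy 2.4.6, scipy 1.17.1, pandas 2.3.3 and matplotlib 3.10.9 were used. Gene positions and overlaps came from an annotation of GRCm38.

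The members and gene lists were chosen with earlier results of these data known. Genes named were those called whose groups do not overlap and average 10 CPM or more (up to 15 a direction, filled to 5 by the smallest p), called list members, up to 4 of the most abundant members of each list, up to 10 interactions per class pair, the 20 most selective markers, and a fixed set (Gfap, Slc1a2, Slc1a3, Fos, Junb, Egr1, Per1, Fkbp5, Sgk1, Tsc22d3, Mt1, Mt2, Mt3, Nfkbia, Lcn2, Vim, Aqp4, Kcnj10, Gja1 and Glul). Some results are not reported here. Promoter windows were chosen after values were seen.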

Additional observations from a re-analysis of the deposited data

Results flagged for a closer look

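The following differences between the TESS change in astrocytes and that in another class passed the interaction test, and are given on the log2 scale as astrocytes minus the other class. Against neurons they were 2.68 for Fkbp5, 2.29 for Sgk1, 1.65 for Hbb-bs, 1.37 for Cntnap2, 0.96 for Mt2, -0.82 for Lrrtm3 and -1.16 for Wdr17. Against oligodendrocytes those given here, with the smallest p or named in astrocytes, were 1.67 for Hbb-bs, 1.33 for Tenm2, -1.12 for Pde4d, -1.13 for Fgf14, -1.17 for Kcnd2, -1.17 for Gpc5, -1.28 for Trpm3, -1.43 for Ppp2r2b, -1.54 for Mgat4c, -1.64 for Car10 and -1.87 for Egfem1. Against oligodendrocyte precursors they were 2.44 for Sgk1 and -2.31 for Slc4a4.

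Of the genes lower in astrocytes against oligodendrocytes, Mgat4c, Car10, Kcnd2, Fgf14 and Egfem1 did not pass in astrocytes and rose in oligodendrocytes, by 1.26, 1.30, 1.03, 1.29 and 1.35. Both Hbb-bs differences rest on TESS 2.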

How the results depend on the processing

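The count of 20 astrocyte genes became 6 with DESeq2, 3 with batch as a term (Mt2, Cntnap2 and Tenm2), 10 after thinning every sample to the smallest total, 5 without nuclei that held markers of other types and 7 without nuclei holding haemoglobin UMIs (the last chosen after seeing the data); with 1 sample left out it ranged from 4 (without TESS 3) to 20, and was 7 without CON 3. Thinning, both removals of nuclei and left-out samples reduce the data. So does the batch term, since a sample alone in its batch adds nothing to the group contrast. That fit compares TESS 1 with CON 1 and CON 2. For DESeq2 the cause was not tested. With no filter on low counts 17 genes were called (9 rose, 8 fell), the median of all genes shifted by -0.17, and none of the differences from precursors passed (0). With 1 sample left out the differences ranged from 0 to 8 against neurons, from 12 to 43 against oligodendrocytes and from 0 to 4 against precursors, and the share of astrocytes from -1.75 to 0.43 percentage points.

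Replicate numbers did not pair the samples (correlations of deviations -0.02, -0.05 and 0.02); a replicate block gave 24 calls, 19 of them shared. Signs turned for Hbb-bs and for genes that were not called (main log2 changes 0.00 for Slc1a3, 0.04 for Kcnj10, -0.01 for Gja1, -0.14 for Slc7a10 and 0.36 for Clu). With 1 sample left out, the log2 change ran from -0.090 to 0.21 for Slc1a3, from -0.045 to 0.16 for Kcnj10, from -0.064 to 0.028 for Gja1, from -0.37 to 0.11 for Slc7a10 and from -0.020 to 0.53 for Clu. The Hbb-bs difference ran from -0.24 (without TESS 2) to 2.26 against neurons, and from -0.23 (without TESS 2) to 2.38 against oligodendrocytes. Slc1a3 also gave -0.14 and Kcnj10 -0.0952 with no filter. The batch term gave -0.12 for Slc1a3, 0.048 for Gja1 and -0.083 for Clu, and thinning gave -0.023 for Slc1a3 and 0.066 for Gja1. Slc1a3 gave -0.13 without other-marker nuclei, -0.015 at a minimum count of 3 and -0.16 without haemoglobin nuclei. All alternatives were compared for the named genes, for their differences between classes and for the numbers of genes that rose or fell. Of these values 720 counted as unchanged, 190 as weaker, 9 as stronger, 17 as moved and 22 as reversed. For a gene, weaker means that it lost the call and stronger that it gained it. For a number of genes, they mean markedly fewer or more. Unchanged values include those of genes that were never called. Values inside the batch have no p-value and counted as unchanged when within the standard error of the main value. A gene filtered out of a fit was not counted for that fit.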
